A study of Homo sapiens with 2 samples.

Results

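The 10 genes described here encode the receptors of the insulin-like growth factor (IGF) and insulin system, the adaptors docked to them and 2 IGF binding proteins. The receptors are IGF1R, INSR and IGF2R. The adaptors are IRS1, IRS2, IRS4 and GAB1, GRB10 is an adaptor that restrains the receptors, and IGFBP2 and IGFBP4 are secreted binding proteins. The genes were taken from a list of names, and IGF1R is on it because other studies reported it as a target of miR-194. Every probe set that the platform annotation assigns to a single one of these genes was used, which gave 33 of the 41091 single-gene probe sets on the array and 10 of 19775 genes.

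IGF1R and INSR are related receptor tyrosine kinases that phosphorylate IRS proteins and GAB1 after a ligand binds. The phosphorylated adaptors recruit PI3-kinase and the RAS activators, and so pass the signal to AKT and to the MAP kinases. IGF2R has no kinase domain: it takes IGF2 into the cell for degradation and sorts lysosomal enzymes. MicroRNAs pair through their seed with sites in messenger RNAs and lower the stability or translation of those messengers.

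RNA came from HEK-293T, an established human embryonic kidney line with the SV40 large T antigen. Cells of one group received miR-194 mimics and those of the other negative control mimics, each delivered by lipofection at 50 nM for 48 h. A mimic is a synthetic duplex that enters the silencing complex in place of the natural microRNA. Each group had 1 array, so there is no replicate error and no test between the groups, and the number of arrays limits the precision of every value. An effect of miR-194 cannot be told apart from a difference between the cultures, the labelling reactions or the arrays. The labels do not name the arm of miR-194, and the arrays used here give no check that it entered the cells.

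The sequences of both arms of miR-194 are shown because microRNAs pair with their sites through the seed, bases 2 to 8 in capitals. They are RefSeq sequences on GRCh38.p14, read 5′ to 3′. The 5p arm is given for the MIR194-1 gene at chr1:220118206-220118227, minus strand, and identically for MIR194-2 at chr11:64891404-64891425, minus strand. The 3p arm is given for MIR194-2 at chr11:64891368-64891389, minus strand.
hsa-miR-194-5p: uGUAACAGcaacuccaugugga
hsa-miR-194-3p: cCAGUGGGgcugcuguuaucug
A full match to the 5p seed reads CUGUUAC in a messenger RNA. Transcript sequence was not used here, so the members were not searched for such sites.

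Values are log2 signals, and a difference is the log2 signal with miR-194 minus the log2 signal with the control mimic. Signals under the median of an array were set to that median, the floor (log2 values of 6.10 and 6.06), and probe sets whose mean of both arrays then lay above the mean floor were kept. This kept 24 of the 33 member probe sets, all 24 above the floor on both arrays, and 9 of the 10 genes. The value after ± is the probe set error, which is the disagreement between probe sets of the same gene over the whole array: 0.38 for dim probe sets (mean log2 signal of 9.23 or less), 0.31 for those between 9.23 and 10.87, and 0.27 for brighter ones. It leaves out variation between cultures. The cells carried 8 of 9 markers of the HEK-293 line above the filter, among them the neurofilament NEFL and vimentin (VIM), and 6 of 23 markers of hepatocytes, blood, endothelium, fibroblasts and enterocytes. Those 6 were CYP3A4, CD3E, PECAM1, COL1A1, DCN and CDX2, with differences from -0.32 for CYP3A4 to 0.42 for CD3E, a bound, and their part in the results was not tested. ALB of hepatocytes, PTPRC of blood, VWF of endothelium, LUM of fibroblasts and FABP2 of enterocytes did not pass the filter.

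**Figure D1:**
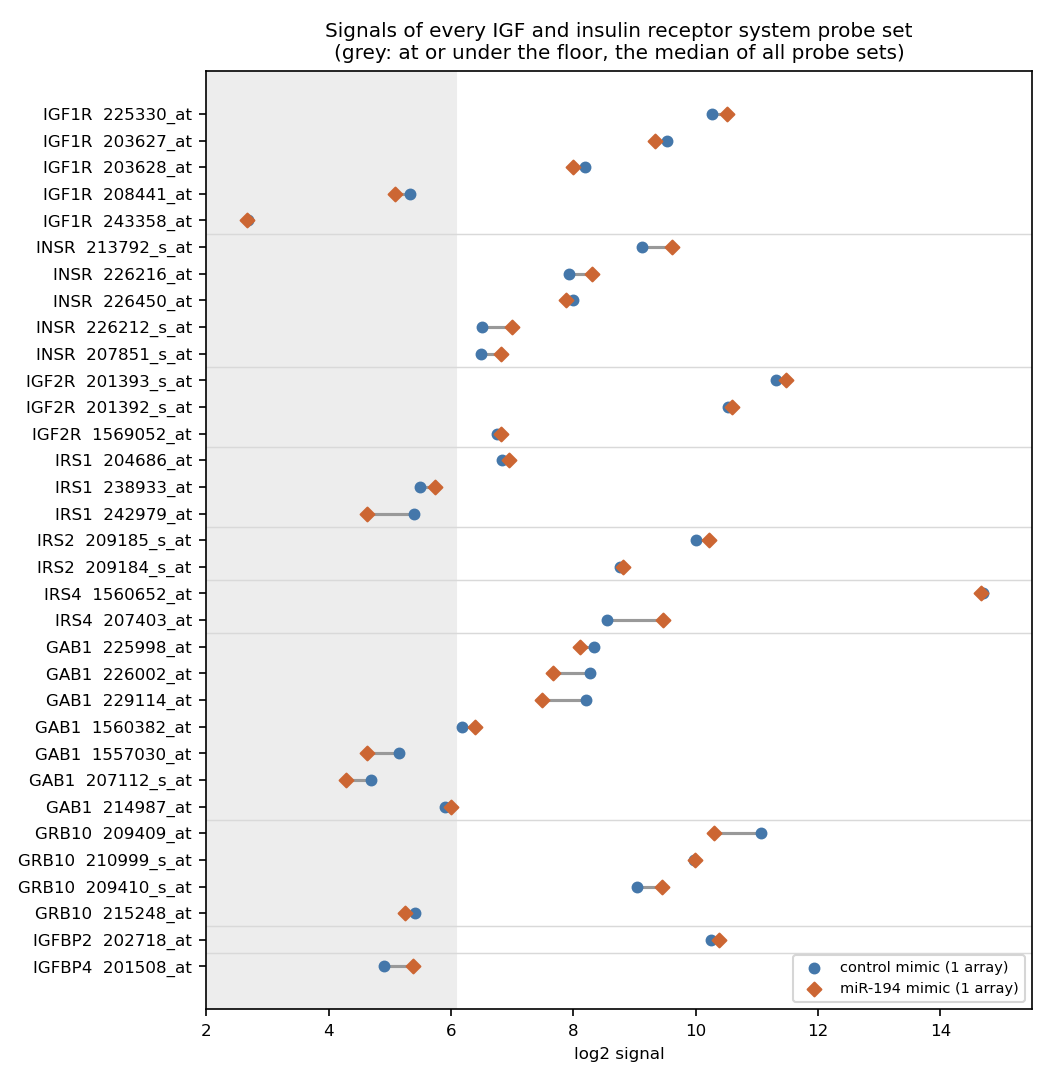
Log2 signal (x axis) of each of the 33 member probe sets (y axis) with the control mimic (circles) and the miR-194 mimic (diamonds), 1 array each, joined by a grey line. The grey area marks signals under the floor, where 9 probe sets lie, and the longest joined lines above it belong to IRS4, GRB10 and GAB1.

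Across the system, differences were small, and none of the 24 kept probe sets differed by 2-fold. With miR-194, 3 probe sets were lower by 1.5-fold or more, 2 of GAB1 and 1 of GRB10, and 1 probe set of IRS4 was higher by that size. These are 12.5% and 4.17% of the member probe sets, while 7.99% of all 24226 kept single-gene probe sets were lower and 5.08% were higher by 1.5-fold or more. With counts of 3 and 1, these shares do not set the members apart from the array. Signals with miR-194 were above the control in 16 of the 24 probe sets (66.7%) and in 52.8% of all kept probe sets. The median difference was 0.08 over the member probe sets and 0.02 over all of them. In RNA of a whole culture, fewer cells with a transcript and less of it per cell cannot be told apart.

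IGF1R, the receptor for IGF1 and IGF2, gave no common direction across its probe sets. Its 3 kept probe sets fell on both sides of 0, each by less than its error. The brightest, 225330_at, had a signal of 1230 in control cells and 1464 in miR-194 cells, a log2 difference of 0.25 ± 0.31. Probe set 203627_at read 741 and 648, a difference of -0.19 ± 0.31. Probe set 203628_at read 291 and 256, a difference of -0.18 ± 0.38. The miR-194 array was thus the higher one on the first probe set and the lower one on the next pair. Both remaining IGF1R probe sets, 208441_at with signals of 40.1 and 34.0 and 243358_at with 6.41 and 6.33, lay under the floor on both arrays. The span between the highest and lowest difference of IGF1R was 0.45, against a median span of 0.51 over all 1743 genes with 3 kept probe sets. Its mean over probe sets was -0.04 with an SD of 0.25 over the 3 probe sets, which are not replicates.

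INSR, the insulin receptor, was higher with miR-194 on 4 of its 5 probe sets, none by 1.5-fold. The brightest, 213792_s_at, read 560 in control cells and 784 in miR-194 cells, a difference of 0.49 ± 0.31 or 1.40-fold. In its class of signal, 95.5% of 5366 kept probe sets had a lower difference. Probe set 226216_at read 244 and 318, at 0.38 ± 0.38, and 226212_s_at read 90.8 and 128, at 0.50 ± 0.38. Probe set 207851_s_at read 90.0 and 113, at 0.33 ± 0.38. The exception was 226450_at, with 255 and 235 and a difference of -0.11 ± 0.38. The 3 INSR probe sets whose names end in _s_at are of a type designed on sequence shared between transcripts. The differences of 213792_s_at and 226212_s_at exceeded their errors, and the median of all kept genes was 0.02.

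IGF2R, the clearance receptor for IGF2, was nearly level on all 3 probe sets. Probe set 201393_s_at read 2546 and 2838, a difference of 0.16 ± 0.27. Probe set 201392_s_at read 1481 and 1539, at 0.06 ± 0.31, and 1569052_at read 108 and 113, at 0.06 ± 0.38. All were above 0 and within their errors. Its span of 0.10 was smaller than that of all but 4.42% of the 1743 genes with 3 kept probe sets.

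The 3 insulin receptor substrates carry the tyrosines to which PI3-kinase binds once the receptor has phosphorylated them. IRS2 was slightly above the control on both probe sets, IRS1 was near the floor, and IRS4 was read differently by its 2 probe sets. For IRS2, 209185_s_at read 1033 and 1195, a difference of 0.21 ± 0.31, and 209184_s_at read 433 and 451, at 0.06 ± 0.38. Both IRS2 differences were within the error and both probe sets are of the shared-sequence type. For IRS1, 204686_at read 115 and 123, at 0.10 ± 0.38. Its other probe sets, 238933_at with 45.1 and 53.3 and 242979_at with 42.1 and 24.6, were under the floor on both arrays, so the lower value on the latter carries no difference here.

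IRS4, the family member long known from the HEK-293 line, gave the largest difference upward and one of the most level readings among the 10 members. Probe set 207403_at read 376 in control cells and 710 in miR-194 cells, a difference of 0.92 ± 0.38 or 1.89-fold. In its class of signal, 98.2% of 14378 kept probe sets had a lower difference. Probe set 1560652_at read 26494 and 26040, a difference of -0.02 ± 0.27. Its log2 signal of 14.69 with the control mimic lay close to the highest value of that array, 15.37. The difference of this probe set was the one whose sign depended on the scaling, at 0.01 after median scaling, -0.22 after quantile normalization and -0.21 after loess. The span of 0.94 between both IRS4 probe sets was larger than in 93.2% of the 3476 genes with 2 kept probe sets, where the median span was 0.29.

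GAB1, the docking protein that binds GRB2 and the phosphatase SHP2, was lower with miR-194 on 3 of its 4 kept probe sets. Probe set 229114_at read 295 in control cells and 179 in miR-194 cells, a difference of -0.72 ± 0.38 or 1.64-fold lower. Probe set 226002_at read 310 and 203, at -0.61 ± 0.38 or 1.53-fold lower. Probe set 225998_at, the brightest by a small margin, read 325 and 276, at -0.24 ± 0.38. These 3 probe sets agreed in direction, and the first pair exceeded their errors. Probe set 1560382_at went the other way, with 72.1 and 83.8 just above the floor and 0.22 ± 0.38. After median scaling 226002_at was at -0.57, which is under 1.5-fold. In their class of signal, 5.74% of kept probe sets had a lower difference than 229114_at and 8.43% a lower one than 226002_at. The other 3 GAB1 probe sets were under the floor on both arrays, with signals from 19.5 to 64.2.

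GRB10, which binds the activated IGF1R and INSR and dampens their signal, was read in opposite directions. Probe set 209409_at was the brightest and read 2149 in control cells and 1264 in miR-194 cells, a difference of -0.77 ± 0.31 or 1.70-fold lower. In its class of signal, 4.47% of kept probe sets had a lower difference. Probe set 210999_s_at was level, with 1002 and 1014 and 0.02 ± 0.31. Probe set 209410_s_at read 526 and 697, at 0.41 ± 0.31, so it was higher by more than its error. The last, 215248_at, was under the floor with 42.4 and 38.1. The span of 1.17 was larger than in 93.9% of the 1743 genes with 3 kept probe sets. The 2 probe sets that were not lower are of the shared-sequence type, and the lower one is not.

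IGFBP2, a secreted protein that holds IGFs away from their receptors, was level on its single probe set. It read 1214 in control cells and 1328 in miR-194 cells, at 0.13 ± 0.31. IGFBP4, another inhibitory binding protein, had 1 probe set with signals of 29.8 and 41.7. Both signals were under the floor, so no difference is given for IGFBP4.

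**Figure D2:**
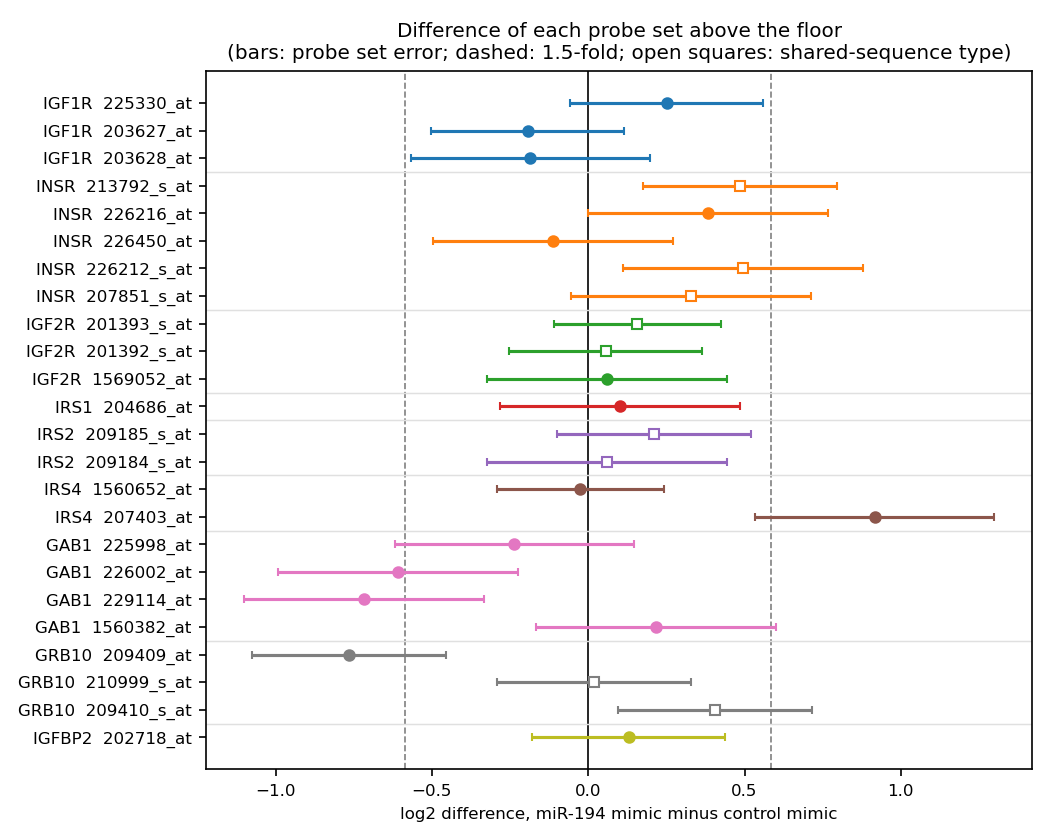
Log2 difference, miR-194 mimic minus control mimic (x axis), of the 24 kept member probe sets (y axis), with bars of ± the probe set error and dashed lines at 1.5-fold. The 4 probe sets that lie past a dashed line are GAB1 229114_at and 226002_at, GRB10 209409_at and IRS4 207403_at, and IGF1R, GAB1, GRB10, INSR and IRS4 have points on both sides of 0.

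Taking each gene by its brightest kept probe set, 6 of 9 genes were above 0 and 3 were below. GRB10 was lower by 1.5-fold or more and no gene was higher by that size, while 7.36% of all 12769 kept genes were lower and 3.02% were higher. The median over the 9 genes was 0.13 and that over all kept genes was 0.02. Of the 7 members with several kept probe sets, 5 (IGF1R, INSR, IRS4, GAB1 and GRB10) had differences on both sides of 0, as had 54.0% of the 6456 such genes on the array. IGF2R and IRS2 had all of theirs above 0. The sign was the same under the authors' scaling, median scaling, quantile normalization and loess for 23 of the 24 probe sets, IRS4 1560652_at being the exception.

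**Figure D3:**
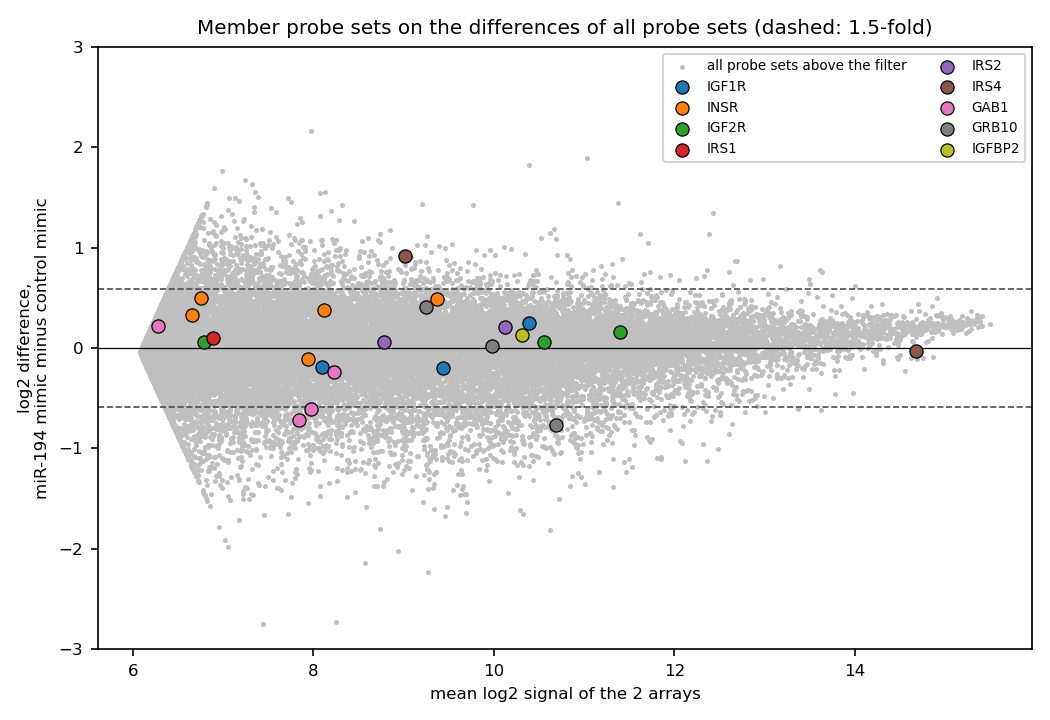
Log2 difference, miR-194 mimic minus control mimic (y axis), against the mean log2 signal of both arrays (x axis), for all 24226 kept single-gene probe sets (grey) and the 24 member probe sets (coloured by gene), with dashed lines at 1.5-fold. Most member points lie within the grey cloud between the dashed lines, and the 4 outside them are of GAB1, GRB10 and IRS4.

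Around the members, 111 other genes of the system were listed in 7 groups, and 82 of them had a kept probe set. Of the 82, 6 (7.32%) were lower and 4 (4.88%) were higher by 1.5-fold or more, near the shares of all kept genes. Their median was 0.02. The values that follow refer to the brightest kept probe set of each gene.

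Among 4 kept ligand genes of the insulin superfamily, 1 (25%) was higher by 1.5-fold and none was lower, against 3.02% and 7.36% of all kept genes. INSL3, a testicular hormone of the relaxin branch, was at least 2.43-fold higher on its single probe set, of the shared-sequence type, with signals of 45.4 under the floor and 167 above it. IGF1 itself was near the floor with the control mimic, at a signal of 74.7, and under the floor with miR-194, at 38.3. Its difference of -0.16 is therefore a bound. The 3 probe sets that read IGF2 are assigned to several genes and were left out, and the probe set of insulin (INS) was not kept.

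Of 10 kept binding proteins and proteins that act on them, 1 (10%) was lower by 1.5-fold or more and none was higher. The shares of all kept genes were 7.36% and 3.02%. That gene was IGFBP5, which binds IGFs in the extracellular matrix and was lower by 1.54-fold (-0.62 ± 0.31). Its signals were 766 and 498, and its other 3 kept probe sets ranged from -0.98 to -0.27, so all 4 were lower. After median scaling and after quantile normalization IGFBP5 was at -0.58, just under 1.5-fold. The other 9 ranged from -0.15 for IGFBP3, a bound, to 0.22 for IGFALS, also a bound.

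Of 12 kept genes for receptor relatives, maturation and turnover, NEDD4 alone (8.33%) was lower by 1.5-fold or more and none was higher by that size. Across all kept genes the shares were 7.36% and 3.02%. NEDD4 is a ubiquitin ligase that partners with GRB10, and it was lower by 1.68-fold (-0.75 ± 0.38) on its single kept probe set, with signals of 302 and 180. IDE, the insulin-degrading enzyme, was at -0.57 ± 0.31, with its other 2 probe sets at -0.24 and -0.10. FURIN, which cleaves the receptor precursors, was at 0.03 ± 0.38.

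Of 24 kept adaptors and feedback proteins at the receptor, 3 (12.5%) were lower and 2 (8.33%) were higher by 1.5-fold or more. Among all kept genes 7.36% were lower and 3.02% were higher, and counts of 3 and 2 do not set this list apart. SOCS6, a suppressor of cytokine signalling that binds the insulin receptor, was lower by 1.97-fold (-0.98 ± 0.38), with another probe set at 0.29. SOS2, a RAS activator, was lower by 1.89-fold (-0.92 ± 0.38), with another at -0.25. GAB2, the closest relative of GAB1, was lower by 1.60-fold (-0.68 ± 0.38) on a single probe set of the shared-sequence type. The docking protein DOK1 was higher by 1.57-fold (0.65 ± 0.38), with another probe set at 0.12. DOK4 was at least 1.85-fold higher, being under the floor with the control mimic, and its other probe set was at -0.24.

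Of 23 kept genes of PI3-kinase, AKT and FOXO, 1 was lower (PIK3C2A) and 1 was higher (FOXO4) by 1.5-fold or more. Each is 4.35%, against 7.36% lower and 3.02% higher over all kept genes. Differences were below 0 for 12 of the 23 and above 0 for 11. PHLPP1, at -0.58 ± 0.38 on its single kept probe set, fell only just short of 1.5-fold lower. PIK3C2A, a class II PI3-kinase of endocytic membranes, had signals of 2964 and 1144 and was lower by 2.59-fold (-1.37 ± 0.31). Its other 4 kept probe sets ranged from -1.15 to 0.14. FOXO4, a transcription factor that AKT keeps out of the nucleus, was higher by 1.51-fold (0.60 ± 0.38) from signals of 69.9 and 106, not far above the floor. PIK3R1, the regulatory subunit that docks on IRS proteins, was at -0.49 ± 0.31, and AKT1 and AKT2 were at 0.08 ± 0.38 and 0.01 ± 0.31.

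No gene of the other groups passed 1.5-fold. The 6 kept genes of the RAS and MAPK arm ran from KSR1, a scaffold (-0.30 ± 0.38), to MAP2K1, the kinase MEK1 (0.20 ± 0.27). The 3 IGF2 messenger RNA binding proteins were IGF2BP2 at -0.36 ± 0.27, IGF2BP3 at -0.20 ± 0.27 and IGF2BP1 at 0.21 ± 0.31. Another IGF2BP3 probe set was at 1.39.

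**Figure D4:**
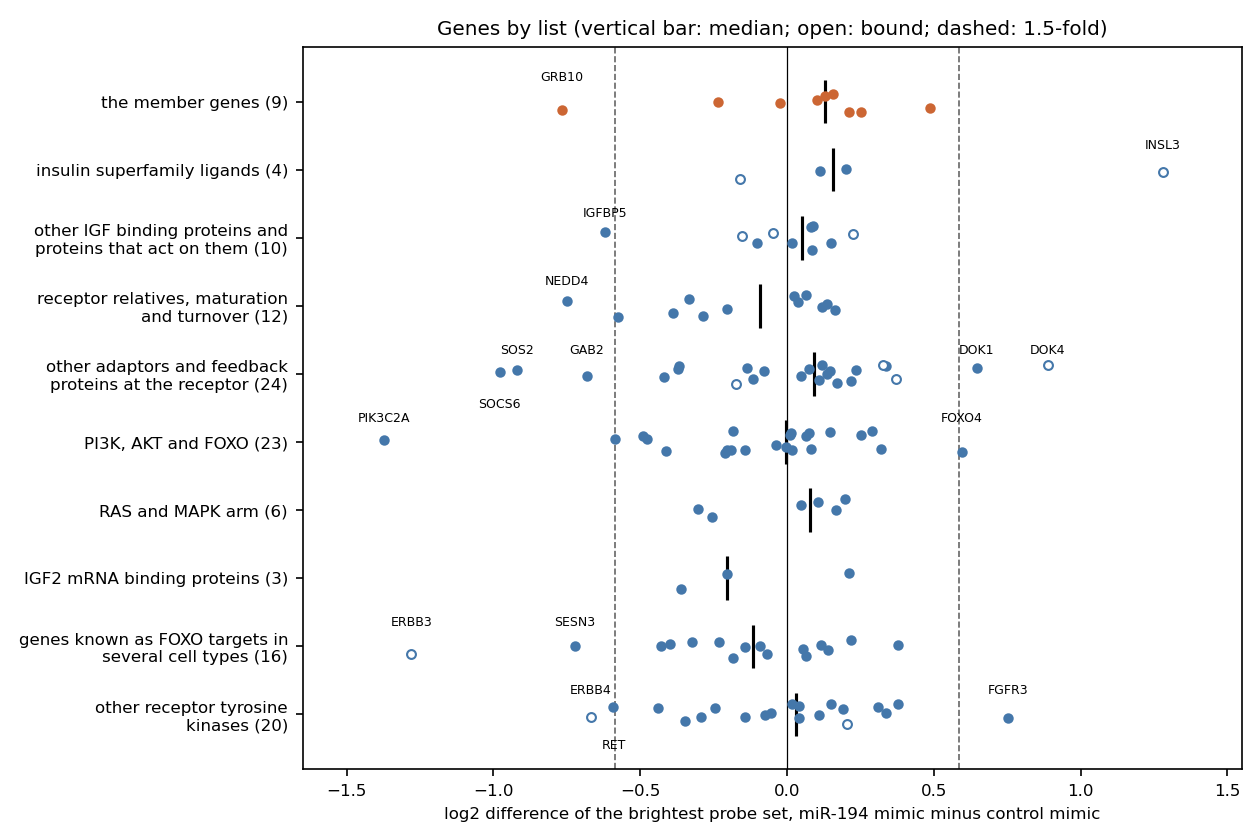
Log2 difference of the brightest kept probe set, miR-194 mimic minus control mimic (x axis), for the members and for each list (y axis, number of genes in brackets), with vertical bars at the medians, open symbols for bounds and dashed lines at 1.5-fold. Named points lie past 1.5-fold, and PIK3C2A and ERBB3 are the lowest of them.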

How the data were processed

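Total RNA of 2 samples, 1 per group, was labelled with biotin and hybridised to 1 Affymetrix 3′ expression array each. The deposited values are log2 signals of 54675 probe sets. The submitters' processing notes name MAS5 without a version, log base or target for scaling. The base was inferred: 2 to the power of the values had a trimmed mean (2% at each end) of 500.1 on either array. Background correction and probe summarisation are the authors'. Detection calls were not used here.

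Genes came from the platform annotation, which can be old; all 33 member probe sets matched the RefSeq symbol of GRCh38.p14 through the Entrez identifier. Another 11721 probe sets without a gene name, 1801 with several genes and 62 array controls were left out. The floor was the median of the non-control probe sets. A gene with a signal under the floor on 1 array has a bound, written "at least". The probe set error is the SD of the difference between the differences of a gene's 2 brightest kept probe sets, over the square root of 2, from 6456 genes in 3 classes of signal. Scaling and counts were tested on simulated data. Whether this error holds for the member probe sets, in particular the dim ones, was not tested. Python 3.11.15, numpy 2.4.6, pandas 2.3.3 and statsmodels 0.14.6 were used.

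The members and lists were chosen with earlier results of these data known. Named list genes are those past 1.5-fold on the brightest kept probe set, otherwise the lowest and highest. PIK3R1, PHLPP1, AKT1, AKT2, IGF1, IDE, FURIN, IGFBP3, IGFALS, IGF2BP3, CAT and TXNIP were named after their values were seen. Alternatives were median, quantile and loess (span 0.3) scaling, floors at the 25th and 75th percentiles or none, leaving out shared-sequence probe sets (_s_at, _x_at, _a_at), 2-fold, and the mean over probe sets.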

Additional observations from a re-analysis of the deposited data

How the results depend on the processing

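With 1 array per group, no alternative gives an error between cultures, and probe sets near the floor are least certain. Changes of a count by over 1.5 times, or of a gene's difference by more than its probe set error, are given here. The median of the members ranged from 0.08 without shared-sequence probe sets to 0.17 after median scaling. The median of all kept genes moved too, to -0.01 and 0.06 on those settings, from 0.02 on the main setting. Member probe sets lower by 1.5-fold or more numbered 1 in place of 3 with a floor at the 75th percentile, which used 13 of the member probe sets. With a 2-fold threshold 0 members were lower and 0 were higher, and 1 pathway gene was lower and 1 was higher. At that threshold 1.42% of all kept genes were lower and 0.45% were higher. Pathway genes lower by 1.5-fold or more numbered 6 of 82 on the main setting, against 7.36% of all kept genes. A floor at the 25th percentile gave 10 of 90, against 13.6% of all genes. With no floor and no filter there were 12 of 94, against 17.8%. A floor at the 75th percentile gave 3 of 55, against 6.01%, and the mean over probe sets 3 of 82, against 5.29%. Pathway genes that were higher numbered 4 on the main setting, against 3.02% of all kept genes. There were 8 with no floor and no filter, against 13.2% of all genes. A floor at the 75th percentile gave 0, against 0.73%, and leaving out shared-sequence probe sets gave 2 of 58, against 3.07%. Those settings tested from 55 to 94 pathway genes. Of 69 recomputed differences of single member genes, 67 moved by less than the error. Most had little room to move: another floor left each remaining value as it was, and median scaling shifted all by 0.04. Only GRB10 had passed 1.5-fold, and its sign did not change. The 2 that moved further did so with the mean over probe sets, which put GRB10 at -0.11 and IRS4 at 0.45.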

Other observations

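Genes known as FOXO targets, whose transcription falls in several cell types when insulin or IGF signalling activates AKT, were all 16 above the filter. Their median difference was -0.12, against 0.02 over all kept genes, with 10 below 0 and 6 above. By 1.5-fold or more 2 (12.5%) were lower and 0 were higher, against 7.36% and 3.02% of all kept genes. ERBB3, a receptor of the EGF receptor family, was at least 2.43-fold lower on its brightest kept probe set, of the shared-sequence type, and its other 2 ranged from -0.50 to -0.20. Without shared-sequence probe sets ERBB3 was at -0.50. SESN3, a stress-induced regulator of mTOR, was lower by 1.65-fold (-0.72 ± 0.31), with other probe sets from -0.06 to 0.56. TXNIP, an inhibitor of thioredoxin, was the highest at 0.38 ± 0.31, and its other 2 probe sets were at 0.65 and 0.82. Catalase (CAT) was at 0.22 ± 0.27, with another probe set at 0.60.

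A list of other receptor tyrosine kinases, which leaves out ERBB3 because it stands among the FOXO targets, had 20 kept genes and a median of 0.03. By 1.5-fold or more 2 (10.0%) were lower and 1 (5.0%) was higher, against the same 7.36% and 3.02% of all kept genes. ERBB4, a neuregulin receptor, was at least 1.59-fold lower on its brightest kept probe set, and another was at -0.45. With a floor at the 25th percentile that other probe set became the brightest, so ERBB4 was then represented by the value of -0.45, under 1.5-fold. RET, the receptor for glial cell line-derived ligands, was lower by 1.51-fold (-0.59 ± 0.38) with another probe set at -0.43, and it was under 1.5-fold after median, quantile and loess scaling. FGFR3 was higher by 1.69-fold (0.75 ± 0.27), with another probe set at 0.60.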
